A study of Arabidopsis thaliana with 11 samples.

Results

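The 9 genes described here encode the proteins that keep DNA methylation in place through cell division in Arabidopsis thaliana: the methyltransferases MET1 (AT5G49160), CMT3 (AT1G69770) and CMT2 (AT4G19020), the nucleosome remodeller DDM1 (AT5G66750), the histone methyltransferases SUVH4 (AT5G13960), SUVH5 (AT2G35160) and SUVH6 (AT2G22740), and the methylcytosine-binding proteins VIM1 (AT1G57820) and VIM3 (AT5G39550). They are identified by locus, and all 9 have a row in the tables of both experiments, among 69198 features in all. Their mRNA was measured in 11 endosperm libraries. In experiment 1, homozygous nrpd1 endosperm (3 libraries, nrpd1a-4 mother in the Ler background crossed with an nrpd1a-4 father in the Col background) was compared with wild type (2 libraries, Ler mother and Col father), in seeds 6 days after pollination. In experiment 2, paternal nrpd1 endosperm (3 libraries, wild-type Ler mother and nrpd1a-4 Col father) was compared with wild type (3 libraries, Ler mother and Col father), in seeds 6 to 7 days after pollination. RNA polymerase IV, whose largest subunit NRPD1 encodes, feeds the small RNA pathway that directs DNA methylation, and the question for these genes is whether its loss goes with a change in the maintenance machinery. Every cross is labelled with a Ler mother and a Col father, so the parent and the strain of an allele cannot be told apart. At some genes of experiment 1, given below, homozygous nrpd1 had few or no Ler counts, and the mother's strain there was not tested. Each library was made from seeds of several crosses dissected by hand, and no source gives the crosses behind a library, so p-values measure the spread between these samples.

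Plants methylate cytosines in 3 sequence contexts, CG, CHG and CHH, where H is any base but G. MET1 copies CG methylation onto the new strand behind the replication fork, with the VIM proteins, which bind DNA methylated on the old strand alone. CMT3 and CMT2 bind nucleosomes whose histone H3 is methylated on lysine 9, and CMT3 methylates mainly CHG and CMT2 mainly CHH, both in heterochromatin. SUVH4, SUVH5 and SUVH6 place that histone mark and bind methylated DNA, so that the marks reinforce each other, and DDM1 opens nucleosomes for the methyltransferases. Endosperm nourishes the embryo. It carries 2 maternal genomes and 1 paternal, and its maternal genome is known to have lost methylation in the central cell before fertilization.

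The experiments differ in kit and reads: experiment 1 used a stranded TruSeq kit with 15 amplification cycles and pairs of 100 bases, and experiment 2 the SMARTer V4 kit with 12 cycles and unpaired reads of 40 bases. Comparisons between mutant and wild type therefore stay within an experiment. Library totals were 15926510 to 20817788 counts in experiment 1 and 24845721 to 35629462 in experiment 2, of which 17.8% to 18.4% and 7.05% to 7.82% were assigned to an allele. Levels are given in CPM, counts scaled to a library of 1000000. The targeted gene NRPD1 stood at 26.5, 21.7 and 30.7 CPM in the homozygous mutant, where wild type had 47.6 and 39.6. In the paternal mutant it stood at 5.89, 1.76 and 4.19 CPM, where wild type had 8.32, 10.5 and 10.5. Both differences were negative and did not pass edgeR's quasi-likelihood test (log2 differences of −0.73 and −1.30, SE 0.17 and 0.47, adjusted p 0.244 and 0.621). Of the 10 endosperm markers, SUC5, ALE1 and ZOU were abundant in every library. MINI3 and IKU2, markers of earlier endosperm, were at or near 0. The median of the 10 was 0.58 to 3.83 CPM across the libraries, with 1 to 3 of them at 0, so their sums rest on a part of them. In experiment 1 the endosperm markers summed to 608 to 866 CPM in homozygous nrpd1, against 846 to 946 CPM in wild type. Seed coat markers summed to 1006 to 1567 CPM in homozygous nrpd1, against 1072 to 1094 CPM in wild type, and to 218 to 946 CPM in paternal nrpd1, against 303 to 420 CPM in wild type. The 12 embryo markers summed to 185 to 235 CPM in homozygous nrpd1, against 239 to 250 CPM in wild type, and to 401 to 838 CPM in paternal nrpd1, against 314 to 490 CPM in wild type. CUC2 was at 0 in all 11 libraries. In tissue samples, fewer cells of a type and less RNA per cell cannot be told apart.

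In the TAIR10.1 annotation from RefSeq, MET1 lies at chr5:19932114-19938470 on the plus strand, DDM1 at chr5:26648897-26653191 (plus), CMT3 at chr1:26248118-26253687 (minus) and CMT2 at chr4:10414428-10421265 (plus). SUVH4 lies at chr5:4501362-4506250 (plus), SUVH5 at chr2:14822774-14826194 (plus), SUVH6 at chr2:9662638-9667038 (minus), VIM1 at chr1:21413981-21418115 (minus) and VIM3 at chr5:15837178-15840678 (minus). Counts cover annotated exons of the whole gene as deposited, and no source used here says whether strand was used. SUVH4 overlaps AT5G13970 on the other strand, and SUVH6 overlaps AT2G07845 and AT2G22730 on the other strand. How reads of the shared stretches were counted is not given, so the counts of SUVH4 and SUVH6 may be too high or too low. The other 7 genes overlap no annotated gene.

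VIM3 has closer relatives than VIM1 has, which bears on how far their counts can be trusted. The first 60 coding bases of VIM1 to VIM5, read from the TAIR10.1 genome and written 5′ to 3′, show this. Capitals mark bases that differ from VIM1 at the same position.
VIM1: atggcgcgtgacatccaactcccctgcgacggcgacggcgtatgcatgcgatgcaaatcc
VIM3: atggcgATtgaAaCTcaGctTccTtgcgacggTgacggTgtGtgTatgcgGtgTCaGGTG
VIM2: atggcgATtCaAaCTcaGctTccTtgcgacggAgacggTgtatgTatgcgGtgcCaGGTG
VIM4: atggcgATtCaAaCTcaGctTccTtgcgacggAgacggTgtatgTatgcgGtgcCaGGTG
VIM5: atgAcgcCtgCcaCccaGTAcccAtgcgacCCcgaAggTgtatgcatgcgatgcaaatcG

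VIM2 and VIM4 are identical over this stretch, and VIM3 follows them at most of the positions where they differ from VIM1. Over the whole coding sequence, VIM3 is 94.4% identical to VIM2 and 94.5% to VIM4, against 72.8% to VIM1. VIM1 is 79.4% identical to VIM5. Of the 40-base stretches of VIM3's exons, the read length of experiment 2, 420 of 1908 (22.0%) occur elsewhere in the genome, in VIM2, VIM4 or VIM5. For VIM1 this holds for 2 of 2043 (0.0979%), both in VIM5, and for the other 7 genes for none. At 100 bases, the read length of experiment 1, 15 of 1402 stretches of VIM3 (1.07%) and none of VIM1 occur elsewhere. VIM3's values, those of experiment 2 above all, are therefore uncertain.

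All 9 genes were expressed in wild-type endosperm, and the order of their levels differed between the experiments. In wild type of experiment 1, CMT2 was highest at 35.9 ± 2.52 CPM per kilobase of exon (mean ± SD, n = 2), followed by SUVH4 at 25.4 ± 0.013 and SUVH6 at 14.1 ± 1.17, with no overlap between neighbours. VIM1 (11.3 ± 2.72), MET1 (11.0 ± 0.20) and CMT3 (10.1 ± 1.44) overlapped one another. DDM1 (8.46 ± 0.51), SUVH5 (7.15 ± 0.42) and VIM3 (6.42 ± 0.59 CPM per kilobase) followed, and these did not overlap.

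In wild type of experiment 2 SUVH4 led at 10.6 ± 3.63 CPM per kilobase (mean ± SD, n = 3). CMT2 (6.31 ± 3.88), DDM1 (6.10 ± 1.68) and VIM1 (6.03 ± 1.20) came next, then SUVH5 (3.93 ± 1.59), CMT3 (3.77 ± 1.63) and SUVH6 (3.45 ± 0.65). MET1 (1.83 ± 0.36) and VIM3 (1.82 ± 0.30 CPM per kilobase) were last. Only the step between SUVH6 and MET1 was free of overlap between neighbours. Wild-type CPM was higher in experiment 1 than in experiment 2 for all 9 genes, by 5.98 times for MET1 and 5.68 for CMT2 down to 1.39 for DDM1, where the median feature had a ratio of 1.54. Kit, reads and day changed with the experiment, and their parts in these ratios cannot be told apart.

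**Figure D1:**
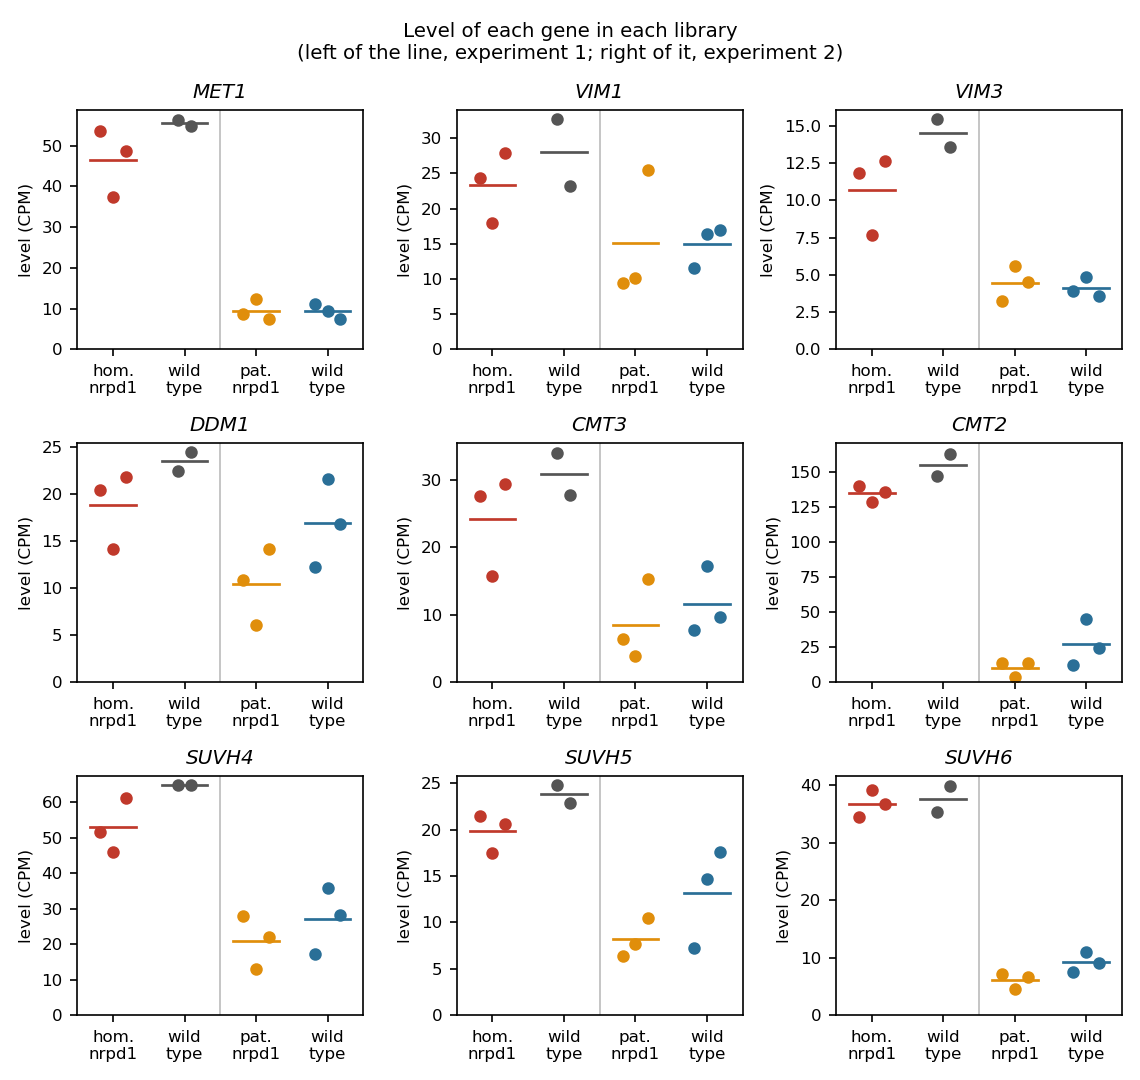
Level of each of the 9 genes in CPM (vertical axis, from 0) in every library, with homozygous nrpd1 and its wild type left of the grey line and paternal nrpd1 and its wild type right of it; points are libraries and bars are group means. CMT2 stands at 128 to 140 CPM in homozygous nrpd1 and 147 to 162 CPM in its wild type, and at 3.79 to 14.0 CPM in paternal nrpd1 and 12.2 to 45.3 CPM in its wild type.

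In homozygous nrpd1 endosperm the maintenance genes were slightly below wild type on average, and none passed the test. All 9 log2 differences were negative, from −0.43 for VIM3 to −0.03 for SUVH6, with a median of −0.27, where the median of all features tested was −0.01 and 50.9% were negative. At an adjusted p under 0.05 in edgeR's quasi-likelihood test, 0 of the 9 genes were called, against 62 of 18570 features (0.334%), and 0 of 9 had an unadjusted p under 0.05, against 11.8% of features. DESeq2 also called 0 of the 9, where it called 524 features (2.54%). Every homozygous nrpd1 library lay below every wild-type library for 6 of the 9 genes (MET1, DDM1, CMT2, SUVH4, SUVH5 and VIM3), as it did for 18.2% of all features tested. VIM1, CMT3 and SUVH5 are on a deposited list of genes left out of allele comparisons in experiment 1. That list is labelled a Col holdout, and the sources used here give no further reason for it. Over the homozygous nrpd1 libraries VIM1 had 1 Ler and 882 Col counts, and CMT3 had 0 and 493. Wild type had 259 and 496 for VIM1, and 238 and 199 for CMT3. Whether the mutant mother carried Col sequence at listed genes, and the list's bearing on total counts, were not tested. If she did, strain and nrpd1 cannot be told apart in those totals.

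For MET1, the VIM genes and DDM1, which maintain CG methylation, the differences were at most 1.35-fold. MET1 had 53.5, 37.4 and 48.7 CPM in homozygous nrpd1, against 56.2 and 54.8 CPM in wild type (log2 difference −0.25, SE 0.16, edgeR adjusted p 0.546). The groups did not overlap, but homozygous replicate 1 lay close to the lower wild-type library. VIM1, which helps MET1 find newly replicated DNA, had 24.4, 17.9 and 27.9 CPM in homozygous nrpd1, against 32.8 and 23.2 CPM in wild type, and the groups overlapped (−0.26, SE 0.23, edgeR adjusted p 0.669). VIM3 had 11.9, 7.69 and 12.6 CPM in homozygous nrpd1, against 15.4 and 13.6 CPM in wild type (−0.43, SE 0.23, edgeR adjusted p 0.498). DDM1 had 20.4, 14.1 and 21.8 CPM in homozygous nrpd1, against 22.4 and 24.4 CPM in wild type (−0.32, SE 0.20, edgeR adjusted p 0.548). In MET1, VIM3, VIM1 and DDM1 alike, the lowest library was homozygous replicate 2.

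CMT2 and SUVH4 had the smallest unadjusted p of the non-CG genes. CMT2 had 140, 128 and 135 CPM in homozygous nrpd1, against 147 and 162 CPM in wild type, with no overlap (log2 difference −0.20, SE 0.086, edgeR adjusted p 0.434). SUVH4, also known as KRYPTONITE, had 51.6, 46.0 and 61.1 CPM in homozygous nrpd1, against 64.8 and 64.7 CPM in wild type (−0.29, SE 0.13, edgeR adjusted p 0.451). SUVH5 had 21.5, 17.4 and 20.6 CPM in homozygous nrpd1, against 24.8 and 22.9 CPM in wild type (−0.27, SE 0.12, edgeR adjusted p 0.459). CMT3 overlapped between the groups, at 27.7, 15.7 and 29.5 CPM in homozygous nrpd1 and 34.0 and 27.7 CPM in wild type (−0.34, SE 0.28, edgeR adjusted p 0.637). SUVH6 was nearly level, at 34.6, 39.2 and 36.8 CPM in homozygous nrpd1 and 35.4 and 39.8 CPM in wild type (−0.03, SE 0.099, edgeR adjusted p 0.913).

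Much of the negative median rested on 1 library. Homozygous replicate 2 held the lowest value of 8 of the 9 genes, and without it the median log2 difference was −0.15. The same library had the lowest sum of 14 DNA replication genes, 283 CPM, against 385 to 475 CPM in the other 4 libraries of the experiment. Its heat shock genes summed to 180 CPM, against 88.1 to 99.1 CPM in the others, its seed storage protein genes to 53039 CPM, against 17608 to 25735 CPM, and its endosperm markers to 608 CPM, against 800 to 946 CPM. The part of these differences in the members' values was not tested.

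In paternal nrpd1 endosperm the spread between libraries was wider, and again none of the 9 genes passed. Log2 differences ran from −1.39 for CMT2 to 0.11 for VIM3, 6 negative and 3 positive, with a median of −0.45, where that of all features was 0.01 and 49.6% were negative. At an adjusted p under 0.05, edgeR called 0 of the 9 genes and 0 of 18901 features (0%); 0 of 9 and 1473 features (7.79%) had an unadjusted p under 0.05. DESeq2 called 0 of the 9 genes and 10 features (0.0478%).

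CMT2, the methyltransferase of heterochromatic CHH sites, had the lowest log2 difference of the 9. It had 14.0, 3.79 and 13.4 CPM in paternal nrpd1, against 12.2, 45.3 and 24.2 CPM in wild type, and the groups overlapped (log2 difference −1.39, SE 0.61, edgeR adjusted p 0.621). Wild-type replicates 1 and 2 alone were as far apart as 12.2 and 45.3 CPM, and without wild-type replicate 2 the log2 difference was −0.81. SUVH6 was the only gene of the 9 with every paternal nrpd1 library below every wild-type library, as was the case for 6.12% of features. It had 7.10, 4.52 and 6.58 CPM in paternal nrpd1, against 7.52, 11.0 and 9.10 CPM in wild type (−0.60, SE 0.34, edgeR adjusted p 0.629). DDM1 had 10.8, 6.09 and 14.2 CPM in paternal nrpd1, against 12.3, 21.6 and 16.8 CPM in wild type (−0.70, SE 0.39, edgeR adjusted p 0.627). SUVH5 had 6.34, 7.70 and 10.5 CPM in paternal nrpd1, against 7.21, 14.6 and 17.5 CPM in wild type (−0.68, SE 0.41, edgeR adjusted p 0.631). In DDM1 and SUVH5 the groups overlapped through wild-type replicate 1, the lowest of its group in both.

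CMT3 had 6.34, 3.83 and 15.3 CPM in paternal nrpd1, against 7.74, 17.2 and 9.73 CPM in wild type (log2 difference −0.45, SE 0.55, edgeR adjusted p 0.782). SUVH4 had 27.8, 13.0 and 22.0 CPM in paternal nrpd1, against 17.3, 35.8 and 28.1 CPM in wild type (−0.37, SE 0.39, edgeR adjusted p 0.749). The groups overlapped in both genes. MET1, at 8.60, 12.3 and 7.40 CPM in paternal nrpd1 and 11.0, 9.45 and 7.38 CPM in wild type, differed by 0.02 on the log2 scale (SE 0.34). VIM1, at 9.48, 10.1 and 25.5 CPM in paternal nrpd1 and 11.5, 16.3 and 17.0 CPM in wild type, differed by 0.01 (SE 0.44). VIM3, at 3.23, 5.59 and 4.51 CPM in paternal nrpd1 and 3.94, 4.87 and 3.55 CPM in wild type, differed by 0.11 (SE 0.39). For MET1, VIM1 and VIM3 the sign turned negative when libraries were scaled by total count alone (−0.14, −0.08 and −0.08), a scaling that moves the median of all features to −0.12.

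The median of the 9 genes depended on single libraries here too: it was −0.12 without wild-type replicate 2 and −0.71 without wild-type replicate 1. Paternal replicate 2 held the lowest value of 5 of the 9 genes and the highest value of MET1 and VIM3, and its heat shock genes summed to 308 CPM, against 43.7 to 110 CPM in the other 5 libraries. The 10 endosperm markers summed to 399 to 455 CPM in paternal nrpd1, against 503 to 569 CPM in wild type, with no overlap and with 1 to 2 of the 10 at 0 in paternal nrpd1, against 2 to 3 in wild type. The parts of that library's state and of the endosperm marker level in these values were not tested.

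**Figure D2:**
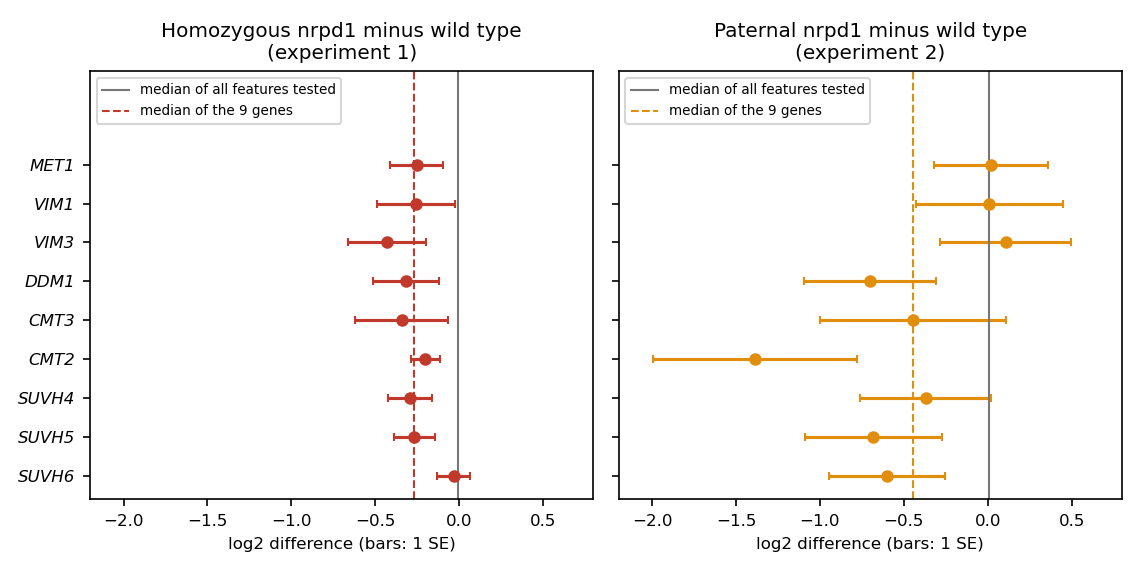
Log2 difference of each gene (horizontal axis; bars are 1 SE of the edgeR fit), mutant minus wild type, in homozygous nrpd1 (left) and paternal nrpd1 (right); the dashed line is the median of the 9 genes and the solid line that of all features tested. All 9 points of homozygous nrpd1 lie between −0.43 and −0.03, and those of paternal nrpd1 between −1.39 and 0.11 with longer bars.

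No gene of the 9 was shown to differ between the mutants. The interaction in 1 edgeR fit of all 11 libraries called 0 of the 9 genes and 0 of 20078 features (0%), and 7.18% of features had an unadjusted p under 0.05. None of the 9 had an unadjusted p under 0.05. DESeq2 called 105 features and 0 of the 9. The member with the smallest adjusted p was SUVH6, whose homozygous minus paternal difference of log2 differences was 0.58 (SE 0.31, edgeR adjusted p 0.721). The kit changed with the mutant in this comparison, so the parts of kit and mutant cannot be told apart.

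Some differences between libraries of 1 group were shared by most of the 9 genes, with MET1 and VIM3 among those apart in experiment 2. Over the 11 libraries, 26 of the 36 pairs of genes had a positive Pearson r. On log2(CPM + 0.5) centred on each experiment, homozygous replicate 2 was below its experiment's mean for every gene but SUVH6, down to −0.71 for CMT3 and −0.60 for VIM3. In experiment 2, wild-type replicate 2 was above the mean for all 9 genes, up to 1.59 for CMT2 and 0.91 for CMT3. Paternal replicate 2 was at −1.83 for CMT2 and −1.12 for CMT3, but at 0.40 for MET1 and 0.37 for VIM3. Paternal replicate 3 was mixed, at 0.83 for VIM1 and 0.74 for CMT3, but at −0.15 for SUVH6 and −0.29 for MET1. The mean of the 14 replication genes stood at −0.48 in homozygous replicate 2, 0.31 in wild-type replicate 2 of experiment 2 and −0.28 in paternal replicate 2.

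**Figure D3:**
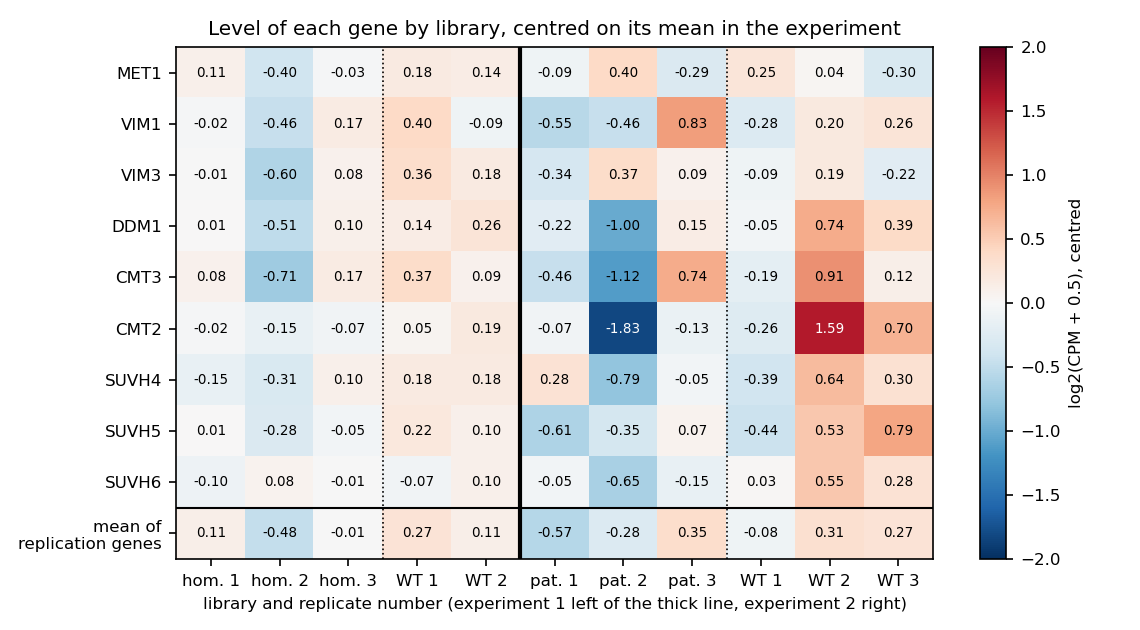
Each gene's level (rows; log2(CPM + 0.5) centred on its mean within the experiment, colour and printed value) in each of the 11 libraries (columns), with the mean of 14 DNA replication genes in the bottom row. Homozygous replicate 2 is blue for 8 of the 9 genes, and paternal replicate 2 is blue for 7 of 9, with MET1 and VIM3 at 0.40 and 0.37.

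The 14 replication genes, which load and run the replication fork, had the same signs in homozygous nrpd1: 14 of 14 log2 differences were negative, with a median of −0.29 and 0 called (edgeR). MCM5 and MCM4, parts of the replicative helicase, had the smallest p of them, with log2 differences of −0.49 (SE 0.16, edgeR adjusted p 0.373) and −0.26 (SE 0.11, edgeR adjusted p 0.433). In paternal nrpd1, 11 were negative and 3 positive, with a median of −0.45 and 0 called. RNR1, which makes deoxynucleotides, and ICU2, the catalytic subunit of DNA polymerase alpha, were at −0.75 (SE 0.37) and −0.97 (SE 0.54). The sliding clamp genes PCNA1 and PCNA2 were at 1.00 (SE 0.53) and 1.11 (SE 0.54), with edgeR adjusted p from 0.623 to 0.627 for all 4. The 5 genes whose profile over the 11 libraries was most like the mean of the 9, among 9522 tested in both experiments with at least 10 CPM, were AT5G48460, TANGLED (ATN, AT3G05330), MAP65-2 (AT4G26760), AT1G74330 and AT4G22860. Their Pearson r was 0.97 to 0.98, a description over libraries that share their experiment's kit and depth.

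Promoters were read from 250 bases before to 50 after each annotated start for the E2F-type letters TTTCCCGC, TTTCCCGG, TTTGGCGC, TTTGGCGG, TTTGCCGC, TTTGCCGG, TTTCGCGC and TTTCGCGG, on both strands. E2F factors are regulators of S-phase genes. At least 1 of these words stood in 3 of the 9 promoters (33.3%), 10 of the 14 of replication genes (71.4%) and 984 of 27443 of all protein-coding genes (3.59%). The 130-base stretches that hold a match in CMT3, CMT2 and SUVH4 are given 5′ to 3′ on the gene's strand, with the match in capitals. CMT3 and SUVH4 are shown from 100 bases before to 30 after the start (chr1:26253658-26253787, minus, and chr5:4501262-4501391, plus), and CMT2 from 250 to 121 bases before it (chr4:10414178-10414307, plus).
CMT3: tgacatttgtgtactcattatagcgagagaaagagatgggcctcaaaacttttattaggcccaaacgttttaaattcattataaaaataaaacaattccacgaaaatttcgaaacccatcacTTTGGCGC
CMT2: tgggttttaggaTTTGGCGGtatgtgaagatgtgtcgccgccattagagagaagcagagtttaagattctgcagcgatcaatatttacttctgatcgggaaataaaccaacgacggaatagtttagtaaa
SUVH4: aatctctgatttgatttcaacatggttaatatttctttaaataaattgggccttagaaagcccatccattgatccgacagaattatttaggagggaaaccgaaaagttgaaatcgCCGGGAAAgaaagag

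The match begins at base 23 after the start in CMT3, at base 238 before it in CMT2, and at base 16 after it in SUVH4, where it reads TTTCCCGG on the other strand. MET1, DDM1, SUVH5, SUVH6, VIM1 and VIM3 hold none of these letters in the window. The matches did not separate the genes by likeness to the mean profile of the replication genes over the 11 libraries. Pearson r with that profile was 0.84 for CMT3, 0.51 for CMT2 and 0.43 for SUVH4, which hold a match. Of the genes without one, it was 0.88 for VIM1, 0.82 for SUVH5, 0.75 for DDM1, 0.56 for VIM3, 0.37 for SUVH6 and 0.03 for MET1, a description over libraries that share kit and depth. A match is a description of the sequence, not a shown binding site.

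Allele counts allowed a view of the parents' contributions for 5 of the 9 genes. SUVH5 and VIM3 had 0 allele-assigned counts in all 11 libraries, SUVH4 had 37 Ler and 0 Col counts of 5264 in experiment 1 and none in experiment 2, and MET1 had 42 Ler and 23 Col counts in experiment 1 and 2 Ler counts in experiment 2. Of a gene's allele counts, the percentage from Ler is its maternal share, and equal output per copy gives 66.7% in endosperm alone. Seed coat and embryo markers were also counted in these libraries, and the part of those tissues in the shares was not tested. Shares were tested where allele counts averaged 20 or more per library: CMT2, DDM1 and SUVH6 in experiment 1, and VIM1, CMT2, DDM1 and CMT3 in experiment 2. VIM1, CMT3 and SUVH5 are on the deposited list of genes that were left out of allele comparisons in experiment 1. Beyond the label Col holdout, the sources used here do not give the reason. The counts of listed genes that follow are therefore values only and are not read as a change of the maternal transcript. In homozygous nrpd1, VIM1 had 0 of 273, 0 of 195 and 1 of 415 allele counts from Ler, where the counts of 0 allow shares of up to 1.1% and 1.54% (3 counts). CMT3 had 0 of 155, 0 of 103 and 0 of 235, which allows shares of up to 1.94%, 2.91% and 1.28%.

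Among the 5 genes whose allele counts allowed a view, only VIM1 had most of them from the paternal Col allele in every wild-type library. In experiment 1 VIM1 is a listed gene, and the limit given above applies to its allele counts there. In experiment 2 its maternal share was 39.2%, 25.0% and 34.9% in paternal nrpd1, against 38.0%, 35.5% and 43.0% in wild type. All 6 libraries lay under 50%, and all of their 95% Wilson intervals ended under 66.7%. Against 2 maternal to 1 paternal, the log2 ratio was −1.99 in paternal nrpd1 (SE 0.21, edgeR adjusted p 2.6e-06) and −1.66 in wild type (SE 0.20, edgeR adjusted p 1.23e-05). In wild type 18.5% of the 7371 genes tested were called, 9.9% of the 7371 lower than 2 to 1. Paternal nrpd1 minus wild type was −0.32 (SE 0.29, edgeR adjusted p 0.984), with overlapping groups. The share was close to the same in wild type of experiment 1, 34.5% and 34.0%. Keeping listed genes there was an alternative chosen after seeing the data. In it VIM1 differed from 2 to 1 by −1.94 (SE 0.36, edgeR adjusted p 0.0305), where 9.17% of genes were called lower.

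In wild type of experiment 1, 73.2% and 72.9% of VIM1's counts carried an allele, against at most 18.4% over whole libraries. In the same libraries CMT2 stood at 51.8% and 53.1% and CMT3 at 37.7% and 39.0%. DDM1, SUVH6, MET1, SUVH4, SUVH5 and VIM3 were at or below 16.7%. How reads were assigned to an allele is not given in the sources used here, and its part in the share was not tested. The maternal share of VIM5, which shares 2 of VIM1's 2043 stretches of 40 bases exactly, was 14.4%, 5.0% and 6.15% in paternal nrpd1, against 10.1%, 9.18% and 13.1% in wild type of experiment 2. Reads aligned with mismatches were not examined, and the part of VIM5 reads in VIM1's share was not tested. VIM5 is a known paternally expressed imprinted gene.

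CMT2 kept near the 2 to 1 ratio. Its maternal share was 64.0%, 72.5% and 67.7% in homozygous nrpd1, against 64.4% and 62.8% in wild type, from 986 to 1659 allele counts per library (log2 difference 0.29, SE 0.23, edgeR adjusted p 0.616). Over all 8417 genes tested the median difference was 0.33, and 9 were called (0.107%), none of them among the 3 members tested, of which 0 had an unadjusted p under 0.05, against 7.72% of genes. In experiment 2 the share of CMT2 was 71.1%, 40.0% and 79.2% in paternal nrpd1, where replicate 2 had 5 allele counts, against 76.9%, 73.9% and 70.3% in wild type (0.03, SE 0.35, edgeR adjusted p 1.0). SUVH6 had a share of 75.0%, 83.9% and 67.2% in homozygous nrpd1, against 70.6% and 56.7% in wild type, with overlap (0.80, SE 0.43, edgeR adjusted p 0.592). Homozygous replicate 2 held the highest share of CMT2, SUVH6 and DDM1, and its median maternal share over all genes tested was 75.9%, against 66.9% to 70.5% in the other 4 libraries of experiment 1. The part of that library-wide level in the members' shares was not tested. CMT3 had 78.6%, 37.1% and 74.8% in paternal nrpd1, against 46.7%, 64.8% and 66.0% in wild type of experiment 2 (0.38, SE 0.60, edgeR adjusted p 0.986). In experiment 2, 5 of 7371 genes had a changed share (0.0678%) and 0 of the 4 members, of which 0 had an unadjusted p under 0.05, against 5.25% of genes. DESeq2 called 0 members in either experiment.

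DDM1 shares scattered beyond counting error. They were 65.3%, 78.6% and 32.7% in homozygous nrpd1, against 56.7% (95% Wilson interval 44.8% to 67.9%) and 10.5% (5.43% to 19.4%) in wild type, from 28 to 76 allele counts per library. The 2 wild-type libraries thus differed from each other by more than their counting intervals. The mutant difference of 1.45 did not pass (SE 0.87, edgeR adjusted p 0.592). It was 3.43 without wild-type replicate 1 and −0.02 without wild-type replicate 2. With a replicate term it was 2.28 (edgeR adjusted p 0.0126), but replicate numbers were not shown to pair libraries. In wild type DDM1 was called below 2 to 1 (−2.09, SE 0.64, edgeR adjusted p 0.0290), as were 15.6% of 8417 genes, with 25% called in either direction. That call was lost without wild-type replicate 2 (−0.61, edgeR adjusted p 0.621) and without homozygous replicate 2 (−2.07, edgeR adjusted p 0.0559). In experiment 2 the DDM1 share was 66.7%, 40.0% and 37.0% in paternal nrpd1, against 45.0%, 72.0% and 63.6% in wild type, from 5 to 50 allele counts (−0.80, SE 0.79, edgeR adjusted p 0.984). Intervals and limits cover counting error only, because amplified reads without molecular identifiers are not independent molecules.

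**Figure D4:**
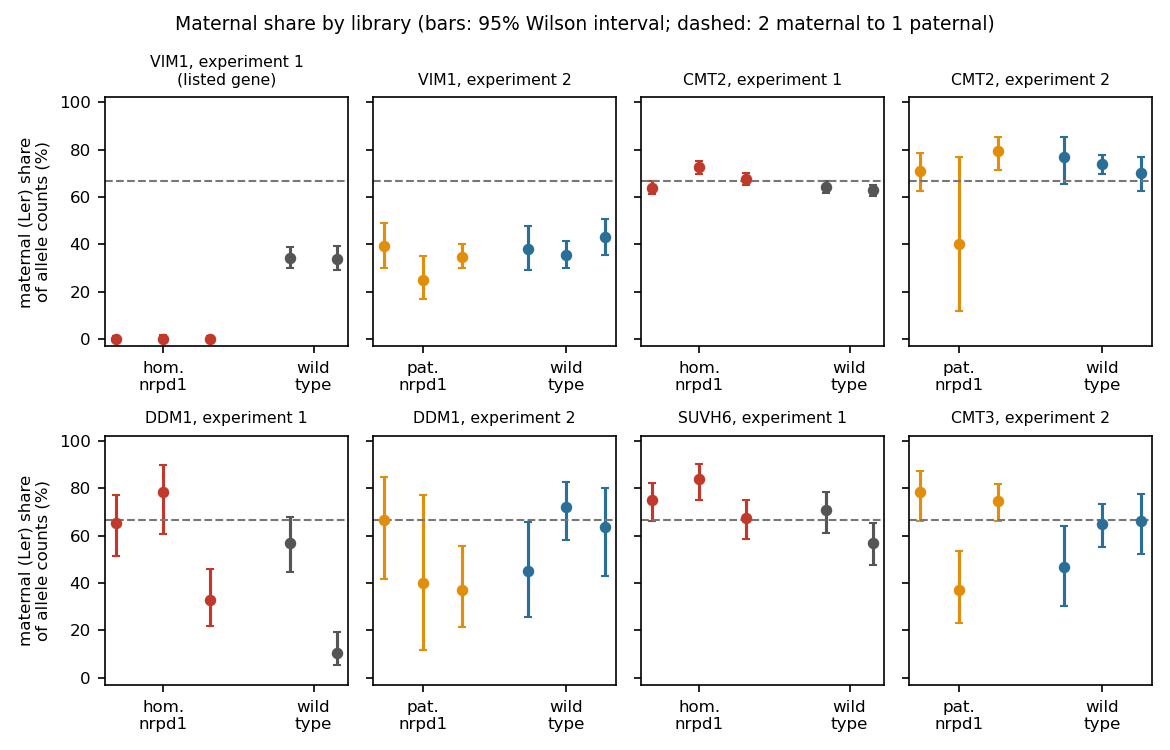
Maternal share (vertical axis, percent of allele-assigned counts that are Ler) per library for the genes with enough allele counts, mutant left of wild type in each panel; bars are 95% Wilson intervals and the dashed line is 66.7%. VIM1 lies at 25.0% to 43.0% in the 6 libraries of experiment 2 and at 34.5% and 34.0% in wild type of experiment 1, and DDM1 spreads between 10.5% and 56.7% in the 2 wild-type libraries of experiment 1.

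Counting each allele alone gave no call among the members tested in either mutant, in the fits without a replicate term. With that term, an alternative, edgeR called DDM1 lower on Col counts in homozygous nrpd1 (−1.79, edgeR adjusted p 0.0264). Replicate numbers were not shown to pair libraries. In homozygous nrpd1, edgeR called 11 of 8396 genes on Ler counts (0.131%) and 18 of 8323 on Col counts (0.216%). Unadjusted p was under 0.05 for CMT2 and DDM1 of the 3 members tested on Col counts, as for 13.8% of genes, and the median over all genes was −0.28 on Col counts and 0.05 on Ler counts. DDM1 was at −1.24 on Col counts (SE 0.44, edgeR adjusted p 0.318) and 0.13 on Ler counts (SE 0.65). The paternal allele of CMT2 was at −0.45 (SE 0.18, edgeR adjusted p 0.341) and its maternal allele at −0.16 (SE 0.13, edgeR adjusted p 0.784). In paternal nrpd1, 0 of 7357 genes were called on Ler counts (0%) and 0 of 7307 on Col counts (0%). Unadjusted p was under 0.05 for DDM1 on Ler counts (−1.42, SE 0.61, edgeR adjusted p 0.677), as for 6.57% of genes. CMT2 was at −1.45 on Ler counts (SE 0.88) and −1.50 on Col counts (SE 0.70), so both parents' counts had the sign of the total.

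The wider methylation machinery was read through 27 other genes: DRM methyltransferases, other VIM and SUVH genes, demethylases, linker histones and methyl donor enzymes. In homozygous nrpd1, 24 were tested, 17 were negative and 7 positive with a median of −0.12, and 1 was called lower, as were 0.102% of features. It was ROS1, the DNA demethylase whose expression is known to need methylation of its own promoter and so to follow the activity of the methylation pathway. ROS1 is also on the deposited list of genes left out of allele comparisons in experiment 1. The bearing of that listing on its total counts was not tested. ROS1 had 166, 150 and 120 CPM in homozygous nrpd1, against 424 and 536 CPM in wild type, with no overlap (log2 difference −1.73, SE 0.17, edgeR adjusted p 0.0324). Its call was lost without any 1 of the 5 libraries, with log2 differences of −1.88 to −1.54 and edgeR adjusted p of 0.0704 to 0.353, while DESeq2 gave an adjusted p of 5.6e-17. In paternal nrpd1 it had 54.1, 18.9 and 26.5 CPM, against 47.2, 206 and 137 CPM in wild type, and did not pass (−1.97, SE 0.60, edgeR adjusted p 0.621).

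Of the wider genes in paternal nrpd1, 25 were tested, 19 were negative and 6 positive with a median of −0.53, and 0 were called. DME, the demethylase of the central cell, followed ROS1 in p among those negative (−1.13, SE 0.39, edgeR adjusted p 0.621). The smallest p among the positive ones belonged to MTHFD1, an enzyme of folate metabolism (0.69, SE 0.30), and to the linker histone gene H1.1 (0.73, SE 0.48). Against 2 maternal to 1 paternal in wild type, 17 wider genes were tested in experiment 1 and 12 in experiment 2. In experiment 1 edgeR called ORL1, MET2a, SUVH1, SUVH8, SUVH9 and DME lower and SAHH2 higher, and in experiment 2 VIM5, ORL1 and SUVH9 lower. Of all genes tested, 25% were called in experiment 1 (15.6% lower) and 18.5% in experiment 2 (9.9% lower). VIM5 was at −4.07 in wild type of experiment 2 (SE 0.21, edgeR adjusted p 1.2e-09), below VIM1's −1.66. The calls of MET2a and SUVH8 in experiment 1 and of ORL1 in experiment 2 were lost without single wild-type libraries (adjusted p up to 0.318, 0.497 and 0.192). DME, called at −2.50 in experiment 1 (SE 0.25), was at 0.03 in experiment 2 (SE 0.49).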

How the data were processed

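The authors deposited, per library, raw counts per feature for all reads and for reads assigned to Col or Ler. Per the submitters' processing notes, TopHat, HTSeq and Trim Galore were used, with FastQC and cutadapt, on TAIR10, and no versions are given; allele assignment and strand are not given in the sources used here. A deposited list of 5081 gene identifiers (unit of type other) was left out of experiment 1 allele tests. In experiment 2, summary rows that name no gene (11.6% to 13.3% of counts) were left out.

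Counts were tested in edgeR 4.0.16 (R 4.3.3): TMM, filterByExpr, quasi-likelihood, two-sided, Benjamini-Hochberg over all features, threshold 0.05. Shares used Ler and Col columns with 1 term per library. Differences are mutant minus wild type. CPM values use TMM factors. Features with low counts were not tested. DESeq2 1.42.0, other scalings, filters, a replicate term and leaving out libraries were alternatives.

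The members and lists were chosen with earlier results of these data known. All 9 members are named; of other lists, those called or, with none, the 2 smallest p in each direction; and the 5 genes most like the members' mean. Sequences and positions are from RefSeq TAIR10.1, whose loci matched all 9 genes.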

Additional observations from a re-analysis of the deposited data

How the results depend on the processing

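The direction of most values held under the alternatives, but counts of called features did not. In homozygous nrpd1, total expression gave 62 called features, 524 with DESeq2, 16 with 1 fit of all 11 libraries, 215 with a replicate block and 0 to 39 without single libraries, and no member was called in any of these. The members' median ranged from −0.40 to −0.15 without single libraries, VIM1 from −0.47 to 0.012 and SUVH6 from −0.11 to 0.069. ROS1's adjusted p was 1.0 with 1 fit of all 11 libraries (−1.74). Paternal nrpd1 gave 0 called features, 10 with DESeq2 and 1 with 1 fit of all 11 libraries. There VIM1 was −0.018 in that fit and −0.13 with a replicate block, and the values with library size alone were −0.14 for MET1, −0.081 for VIM1 and −0.076 for VIM3. Without single libraries MET1 ranged from −0.28 to 0.17, VIM1 from −0.61 to 0.21, VIM3 from −0.16 to 0.27 and the median from −0.71 to −0.12.

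The homozygous share fit called 9 features, 227 with a replicate block, 733 with listed genes kept and 7 to 131 without single libraries. Its members called were 0, 1 with the block (DDM1, 2.28, adjusted p 0.0126), 2 with listed genes kept (VIM1 and CMT3) and 0 to 1 without single libraries, where DDM1 ranged from −0.017 to 3.43. The listed genes VIM1 and CMT3 had 1 and 0 Ler counts in homozygous nrpd1. Their calls are therefore not read as a change of the maternal transcript. On Col counts alone the block called 1 member, DDM1 (−1.79, adjusted p 0.0264), and on Ler counts alone DDM1 ranged from −0.60 to 1.72. Against 2 to 1, wild type of experiment 1 gave 2105 calls, 1395 with listed genes kept, an alternative chosen after seeing the data, and 1397 to 2654 without single libraries. Members called there were 0 to 1, DDM1 ranged from −4.06 to −0.61 and was −2.17 with listed genes kept (adjusted p 0.288), and SUVH6 ranged from −0.61 to 0.26. In experiment 2 DDM1 ranged from −0.34 to 0.12. The paternal share fit called 5 features, 3 at 50 allele counts and 2 to 10 without single libraries. CMT2's share difference was −0.042 with the block, −0.026 with DESeq2 and −0.33 to 0.26 without single libraries, and CMT3's ranged from −0.00022 to 1.06. CMT3 ranged from −0.35 to 0.56 on Ler counts and from −0.47 to 0.11 on Col counts, and VIM1 from −0.70 to 0.27 on Col counts. DDM1 gave no paternal share value at 50 allele counts or without wild-type replicate 2.

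For the difference between the mutants, DESeq2 called 105 features, and 0 to 1 were called without single libraries. MET1 ranged from −0.45 to 0.0058, CMT3 from −0.26 to 0.81, SUVH4 from −0.16 to 0.35 and VIM1 from −0.49 to 0.32. The cause of these changes was not tested. Replicate numbers were not shown to pair libraries. Each library's log2 levels, less its group mean, were correlated between same-numbered libraries of mutant and wild type. This gave 0.31 and 0.35 in the 2 pairs of experiment 1 and −0.53, −0.70 and 0.13 in experiment 2. With 2 wild-type libraries in experiment 1 the deviations mirror each other, which gave −0.31 and −0.35 with the other number. The values of experiment 1 therefore cannot decide whether libraries were paired. Few or no reads of SUVH4, SUVH5, VIM3 and MET1 carried an allele, and their shares could not be tested. In experiment 1, SUVH4 had 37 allele counts of 5264 and MET1 65 of 4562, where VIM1 had 1638 of 2307.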
